A study of Mus musculus with 9 samples.

Results

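Phgdh and Psat1 encode the enzymes of the first steps by which a cell makes its own serine. Members were all spotted cDNA clones whose gene symbol, older synonyms included, is Phgdh or Psat1. There were 4 such clones among the 15294 of the series: H3047A08, H3022F05 and H3044G06 for Phgdh, and H3095G01 for Psat1. On every array that measured them, both genes read lower in quiescent than in growing myoblasts. The Phgdh clones had mean log2 ratios of -4.02, -4.57 and -2.85 in that order, and the Psat1 clone -2.39. The 2 genes were chosen on their measured ratios in the comparisons of G0 MB with MB and with MT, so the values of those comparisons are given as a description and carry no test.

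Each of the 9 mouse cDNA arrays carried RNA of 2 cell states, 1 in Cy3 and 1 in Cy5. MB are growing C2C12 myoblasts, a mouse muscle precursor line, kept in medium with 20% fetal calf serum. G0 MB are C2C12 myoblasts arrested by 48 h of suspension in semi-solid medium with 20% serum, and MT are C2C12 myotubes after 3 days of differentiation in low serum. G0 FB are fibroblasts arrested by suspension in semi-solid medium, which by the methods held less serum than that of the myoblasts. They are named as NIH 3T3 by the labels and as C3H10T1/2 by the methods. Of the arrays with G0 FB, 1 also gives a source beginning with NIH 3T3 for its G0 MB. G0 MB over MB was measured on 3 arrays, and G0 MB over MT, MT over MB and G0 MB over G0 FB on 2 arrays each. All states are cultured lines, and the labels do not say which arrays come from separate cultures, so p-values measure only the spread between these arrays, which may be technical.

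Serine synthesis branches off glycolysis. Phgdh oxidizes the glycolytic intermediate phosphoglycerate with NAD, Psat1 then transfers an amino group from glutamate to the product, and Psph removes the phosphate to release serine. Serine hydroxymethyltransferases (Shmt1 in the cytosol, Shmt2 in mitochondria) turn serine into glycine and pass a carbon to folate, which feeds the synthesis of purines and thymidylate in growing cells. Transcription of Phgdh, Psat1 and Psph is known to be driven by ATF4, the factor that answers amino acid shortage.

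The 250 bases before the annotated starts of both genes are shown because the genes lie on different chromosomes and their brightest clones had the same direction of ratio on every array on which both were measured, except replicate 2 of MT over MB. Sequences are those of RefSeq on GRCm38.p6, and symbols of both genes matched. Phgdh lies at chr3:98313171-98339969 on the minus strand and the window shown is chr3:98339970-98340219. Psat1 lies at chr19:15905123-15925059 on the minus strand and the window shown is chr19:15925060-15925309. Capitals mark CCAAT, the box that the factor NF-Y reads, searched on both strands.
Phgdh: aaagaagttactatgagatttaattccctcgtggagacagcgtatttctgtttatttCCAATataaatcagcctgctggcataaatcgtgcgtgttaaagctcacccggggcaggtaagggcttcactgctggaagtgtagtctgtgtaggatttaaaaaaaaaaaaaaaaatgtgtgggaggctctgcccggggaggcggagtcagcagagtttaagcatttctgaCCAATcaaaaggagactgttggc
Psat1: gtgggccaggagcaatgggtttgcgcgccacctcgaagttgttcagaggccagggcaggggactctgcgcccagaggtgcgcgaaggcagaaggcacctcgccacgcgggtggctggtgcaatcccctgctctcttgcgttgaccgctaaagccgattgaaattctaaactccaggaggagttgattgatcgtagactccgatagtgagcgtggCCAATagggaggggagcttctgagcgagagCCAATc

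Each window held 2 CCAAT boxes, both on the gene's own strand. They begin 193 and 23 bases before the start in Phgdh and 36 and 6 bases before it in Psat1. Of all 32851 windows of that length, 33.8% held at least 1 CCAAT and 10.1% at least 2. A second annotated start of Psat1 (window chr19:15924623-15924872) held none, and the window of Psph held 2 on the other strand. The letters TGATGNAA, which ATF4 shares with C/EBP factors, were in none of these windows and in 3.45% of all. The E-box CACGTG (6.02% of all) and the CRE TGACGTCA (1.55% of all) were in none either. The Sp1 box GGGCGG was in neither window shown against 32.7% of all. It was found 1 time in the window of the second Psat1 start and 3 times, on the other strand, in that of Psph. These matches describe letters and not sites in use.

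Each clone had 2 spots on an array. A spot counted as measured where its intensity passed the detection limit of the array in at least 1 channel, the limit being a fixed intensity per channel. Between 36.4% and 61.1% of clone spots passed on an array. H3047A08 and H3022F05 were measured on all 9 arrays, H3044G06 on 8 and the Psat1 clone on 6. The log2 ratio of the state named first over the state named second was taken by the labelled dyes. The labels and the sign of the authors' value table, read from the titles as test over reference, gave G0 MB over MB the same direction on its 3 arrays. They gave opposite directions to both arrays of G0 MB over MT, both of G0 MB over G0 FB and replicate 1 of MT over MB. Labels and titles alone therefore do not settle the direction of these 5 arrays, and their values are given by the labelled dyes and then in title order. Between both arrays of MT over MB, read by the labelled dyes, r was -0.486 over 5502 clones. Tpm2, a tropomyosin of the muscle filament, had log2 ratios of -3.42 and 2.00 on these arrays by the labelled dyes and 3.42 and 2.00 in title order. Its values in G0 MB over MT were 2.23 and 1.78 by the labelled dyes and -2.23 and -1.78 in title order.

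G0 MB over MB asks what changes when growing myoblasts enter reversible arrest. For H3047A08, the brightest Phgdh clone, the log2 ratio was -4.47 on replicate 1, -4.31 on replicate 2 and -3.29 on replicate 3. Its MB channel read 134512 and 135158 on replicate 1, 166211 on the only spot of replicate 2 with a value, and 20889 and 23452 on replicate 3. The G0 MB channel of the same spots read 8738 and 4262, then 8358, then 2186 and 2340. Every MB reading of this clone lay above every G0 MB reading of it, although the MB signal of replicate 3 was several times dimmer than that of the other arrays.

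H3022F05 had log2 ratios of -5.52, -3.94 and -4.26 on replicates 1, 2 and 3. Its MB channel read from 98592 to 166300 on replicates 1 and 2 and 13212 and 12620 on replicate 3, against G0 MB readings of 1600 to 10949 and of 845 and 536. H3044G06 had log2 ratios of -2.93, -3.23 and -2.40. It was the Phgdh clone nearest to 0 on each of the 3 arrays, and its spots on replicate 1 disagreed, with ratios of -4.04 and -1.83 because the G0 MB channel read 6222 on one and 31713 on the other. All 9 Phgdh ratios of this comparison were below 0.

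The Psat1 clone had log2 ratios of -1.12 on replicate 1 and -3.65 on replicate 2. Its MB channel was alike on these arrays, at 21182 and 22940 on replicate 1 and 23815 and 24465 on replicate 2. The G0 MB channel differed, at 12868 and 7956 on replicate 1, which reads G0 MB in Cy5, against 2286 and 1612 on replicate 2, which reads it in Cy3. On replicate 3 both spots lay under the limit in both channels, with MB at 2235 and 1766 and G0 MB at 1751 and 1099, and gave no ratio. The mean of Psat1 thus rests on 2 arrays that share a direction and differ in size, and it was -1.12 without replicate 2 and -3.65 without replicate 1.

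**Figure D1:**
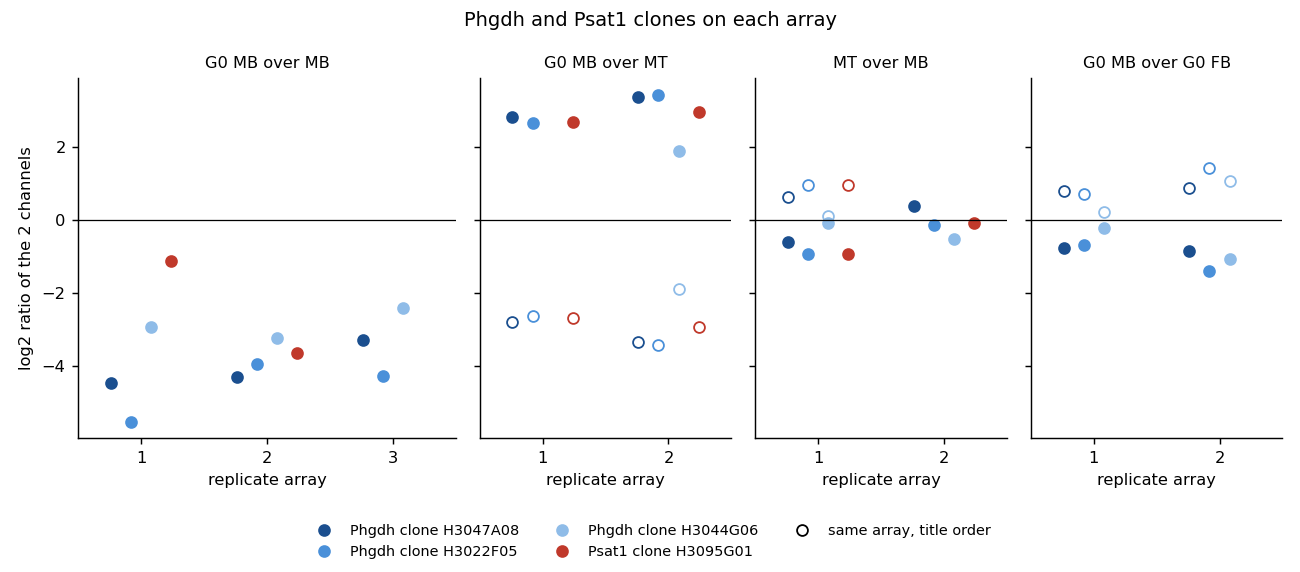
Log2 ratio of the 2 channels (vertical axis) for the 3 Phgdh clones (blue) and the Psat1 clone (red) on each replicate array (horizontal axis), in 4 panels, 1 per comparison. Filled points follow the labelled dyes, and open points show an array in title order where its sign differs. In G0 MB over MB all 11 points lie below 0, from -5.52 to -1.12.

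The G0 MB signal itself was often under its limit, so that the size of many of these ratios is only bounded. Of the 23 spots with a value in G0 MB over MB, 21 passed the limit in the MB channel and 9 in the G0 MB channel. With each reading under a limit set to that limit, H3047A08 had log2 ratios of -4.12, -4.31 and -1.99, H3022F05 of -3.87, -3.94 and -1.22, H3044G06 of -2.86, -3.23 and -0.35, and Psat1 of -1.12 and -2.40. On replicate 2, where all Phgdh readings of G0 MB passed the limit, the folds of MB over G0 MB were 19.9, 15.3 and 9.36 for the clones in that order. On replicate 3, where none of them passed, MB was at least 3.99-fold, 2.32-fold and 1.27-fold higher. Replicate 3 was also on another array layout than replicates 1 and 2 and correlated with them over all clones at r = 0.202 and 0.204, against r = 0.680 between those. On replicates 1 and 2 alone the mean ratio of H3047A08 was -4.39.

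**Figure D2:**
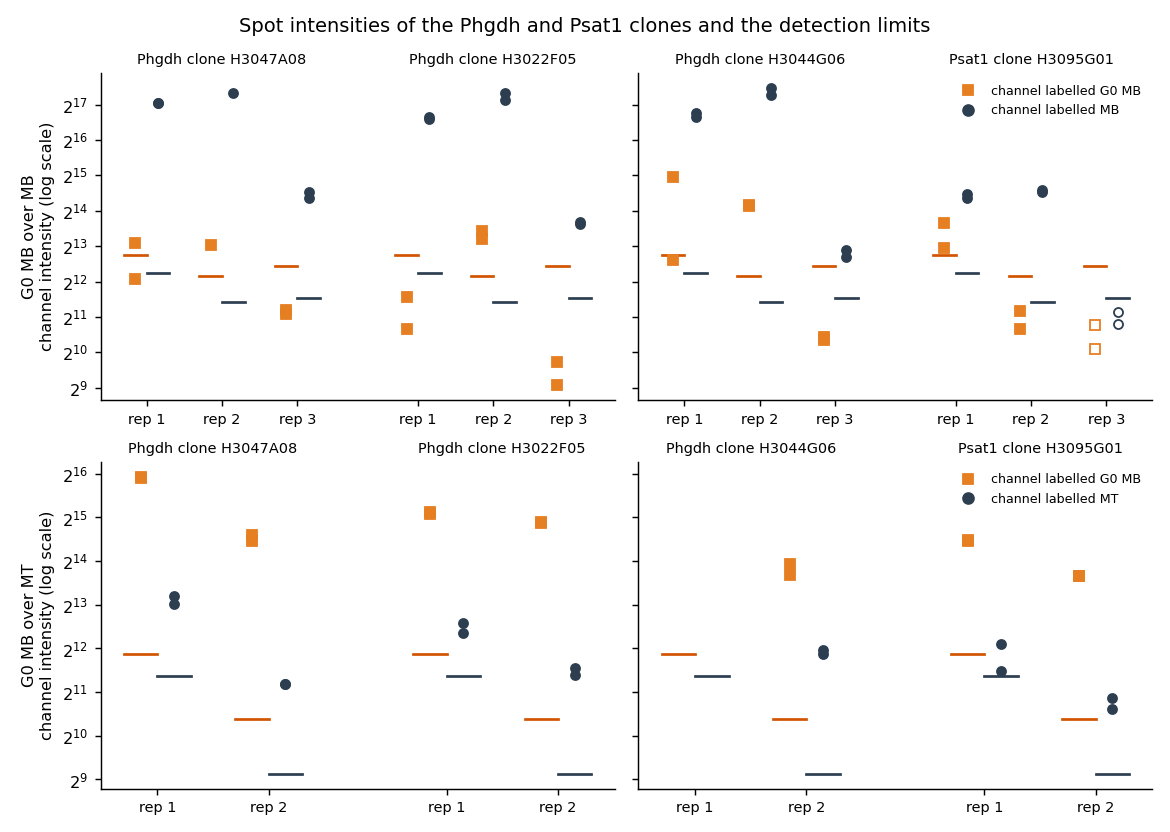
Intensity of each spot on a log scale (vertical axis) for the 4 clones on each replicate array of G0 MB over MB (top) and G0 MB over MT (bottom), with squares for the channel labelled G0 MB and circles for the other channel. Short lines mark the detection limit of each channel, open symbols a spot that passed neither limit. In G0 MB over MB the G0 MB readings of 9 of 23 spots passed the limit, and in G0 MB over MT all 14 spots with a value passed it in both channels.

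The fit across all clones (limma, 1 coefficient per comparison) put H3022F05 at -4.57 (standard error 0.40, n = 3 arrays), H3047A08 at -4.02 (0.36, n = 3), H3044G06 at -2.85 (0.34, n = 3) and Psat1 at -2.39 (0.64, n = 2). These are 23.8-fold, 16.3-fold, 7.23-fold and 5.23-fold. Counted from the lowest ratio, the clones stood 1, 3, 34 and 88 among the 6903 tested. At an adjusted p under 0.04 and past 1.6-fold, 8 of 6903 clones (0.116%) were called lower in G0 MB and 19 (0.275%) higher, and 3 of the 8 were the Phgdh clones. The count of 8 was 238 without replicate 3 and 0 without replicate 1 or replicate 2. The others were 2 clones of Tubb4b, a tubulin, 1 of Psmc5, a proteasome subunit, and 2 without a symbol. As this comparison chose the genes, nothing is read from that count.

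Psph, the last enzyme of the route, was measured by 1 clone, with log2 ratios of -1.45, -1.16 and -1.66 for G0 MB over MB. Its mean was -1.43 (standard error 0.53, n = 3) and it did not pass the test (limma adjusted p = 0.182). On replicate 2 its spots read 0.20 and -2.52, so they disagreed in sign, and only 1 of its 6 G0 MB readings on these arrays passed the limit. With readings under a limit set to it, its ratios were -0.97, -0.02 and 0.82.

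Among the 10 listed enzymes of serine and glycine beyond the members, 6 were on the array and 5 were tested in G0 MB over MB. None was called, 4 of 5 were below 0, and the median log2 ratio was -1.34 beside -0.15 over all 3780 genes tested. Shmt1 had ratios of -1.91, -2.59 and -0.61, with a mean of -1.70 (adjusted p = 0.142). Shmt2 had -2.90, -1.14 and 0.01, with a mean of -1.34 (adjusted p = 0.171), so its replicate 3 stood at 0. Gcsh, a carrier protein of the glycine cleavage system, had a mean of -0.91 and Gldc, its decarboxylase, 0.18.

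**Figure D3:**
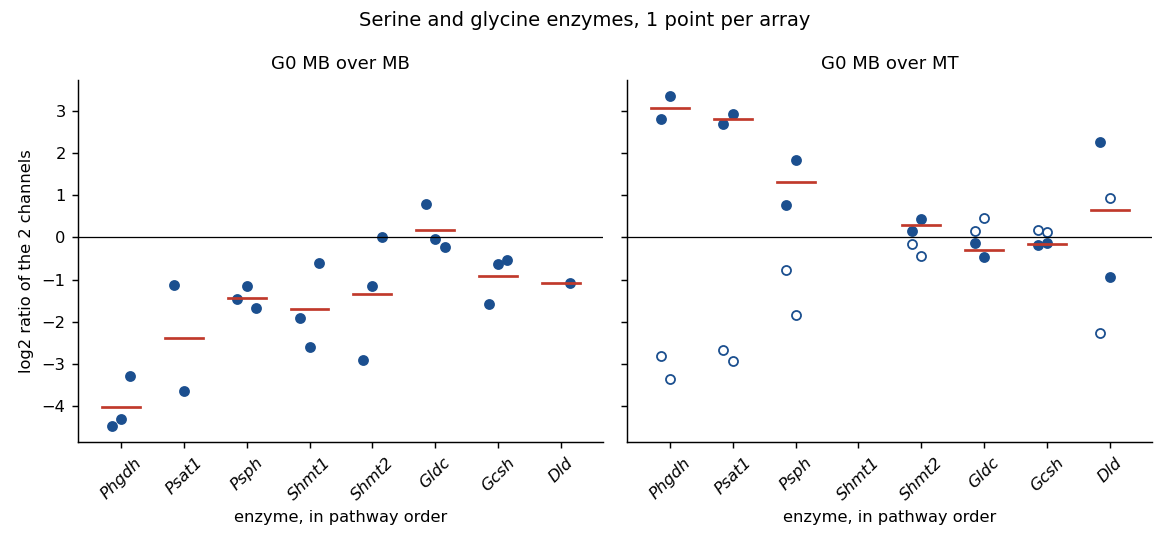
Log2 ratio (vertical axis) of Phgdh, Psat1, Psph and the listed serine and glycine enzymes (horizontal axis, in pathway order) in G0 MB over MB and G0 MB over MT, 1 point per array and a red line at the mean by the labelled dyes. Open points show G0 MB over MT in title order. In G0 MB over MB the means of Phgdh, Psat1 and Psph are -4.02, -2.39 and -1.43.

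Of the ATF4 list, which holds Atf4, its known targets and upstream genes, 21 genes were on the array and 14 were tested in G0 MB over MB. The upstream genes among these 14 were Eif2s1 at -0.32 and Eif2ak4 at -0.31. All 14 were below 0, where 57.7% of all genes were, with a median of -0.78 beside -0.15 over all genes. None was called. Mars1, the methionyl-tRNA synthetase, was lowest at -2.23 (adjusted p = 0.113), followed by Asns, the asparagine synthetase, at -1.59 (n = 2, adjusted p = 0.295). Asns had ratios of 0.09 on replicate 1 and -3.26 on replicate 2, so its low mean rests on 1 array. Atf4 itself had a mean of -0.60 (adjusted p = 0.432). Of 8 genes tested for glutamate supply and transamination, 7 were below 0, with a median of -0.50. Glul, glutamine synthetase, was the exception and the highest gene of the pathway lists, markers left out, with ratios of 2.71, 2.99 and 1.63 and a mean of 2.44. It missed the limit by the labelled dyes (adjusted p = 0.0542) and passed it in the fit in title order (adjusted p = 0.0237), which leaves these 3 arrays as they are and changes only the spread taken from the other arrays.

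Other lists showed no common sign or held few genes. The 3 amino acid transporters tested were below 0, with Slc38a4, a neutral amino acid transporter, lowest at -2.05 (adjusted p = 0.174). The 3 users of serine tested were above 0, with Serinc3, a membrane protein named for serine incorporation, at 2.27 (n = 2, adjusted p = 0.142). Of 6 folate, methionine and purine enzymes, 5 were above 0 with a median of 0.15, and Mthfd2, the mitochondrial folate enzyme that takes the carbon from serine, was the only one below at -1.43 (adjusted p = 0.307). Mthfd2 had ratios of -2.85, -1.84 and 0.40 on replicates 1, 2 and 3. Of the 12 glycolysis genes, 7 were above 0 and 5 below, with a median of 0.15. The 7 above 0 act before the phosphoglycerate that Phgdh uses, and the 5 below 0 act after it. This split was not tested, and several means lay within their standard error of 0. Among these were Aldoc at 0.12 (standard error 0.61), Pfkl at 0.18 (0.28), Pkm at -0.19 (0.35) and Ldha at -0.16 (0.42). None of these genes was called.

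Proliferation markers were also low. Of 13 such genes tested in G0 MB over MB, 12 were below 0 and 10 past 1.6-fold, with a median of -2.31, and none was called by the labelled dyes (3 in the fit in title order, Ccna2, Rrm1 and Ccnb1). The muscle contractile markers measured, Mylpf and Tpm2, had means of 0.48 and -0.24, and the 6 fibroblast markers a median of 0.61. Of these, Dcn, the matrix proteoglycan decorin, had ratios of 2.74, 3.36 and 2.05 and a mean of 2.72. It missed the limit by the labelled dyes (limma adjusted p = 0.0606) and passed it in the fit in title order (adjusted p = 0.0306). The part of cell division in the Phgdh and Psat1 ratios was not tested. Fewer cells with the transcript and less transcript per cell cannot be told apart in these bulk samples.

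G0 MB over MT sets both states of arrest side by side. By the labelled dyes, H3047A08 had log2 ratios of 2.81 and 3.35 on replicates 1 and 2, H3022F05 of 2.63 and 3.42, and Psat1 of 2.68 and 2.93. In title order the same sizes are negative, that is, both genes are lower in G0 MB than in MT. H3044G06 was measured on replicate 2 alone, at 1.88 by the labelled dyes and -1.88 in title order, since its spots on replicate 1 hold no value. Unlike in G0 MB over MB, both channels passed the limit at all 14 spots with a value, so the sizes are not bounded by it. On replicate 1 the channel labelled G0 MB read 61492 and 62296 for H3047A08 and the channel labelled MT 8291 and 9401, and for Psat1 these were 22402 and 23068 against 2856 and 4413. The channels thus differed at these clones on every spot with a value, while which state was higher is unsettled. Between both arrays of this comparison r was 0.02 over 5184 clones, so across all clones they hardly repeated each other.

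In this comparison the means were 3.08 (standard error 0.44, n = 2) for H3047A08, 3.03 (0.49, n = 2) for H3022F05 and 2.81 (0.64, n = 2) for Psat1 by the labelled dyes, or 8.44-fold, 8.14-fold and 6.99-fold. In title order they were -3.08, -3.03 and -2.81. By the labelled dyes no member was called, where 0% of 5134 clones were called higher and 0.039% lower. In title order H3047A08 was called, where 0.117% were called lower and 0.253% higher. The comparison took part in choosing the genes and nothing is read from these counts. Psph had ratios of 0.78 and 1.83 by the labelled dyes, and -0.78 and -1.83 in title order.

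Among genes of the pathway lists, markers left out, Mthfd2 at 3.01 and Gpt2, an alanine aminotransferase, at 2.02 were highest by the labelled dyes, and Glul at -1.70 and Gpi1, a glycolytic isomerase, at -1.67 were lowest. These signs turn in title order, and none of these genes was called in either reading. All 9 tested genes of the ATF4 list were above 0 by the labelled dyes and below 0 in title order, with a median of 1.29 or -1.29 beside -0.09 or 0.09 over all genes. Glycolysis genes lay on the other side, with 10 of 12 below 0 by the labelled dyes and above 0 in title order.

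MT over MB asks what terminal differentiation changes, and its values were not used to choose the genes. They are still tied to that choice, since the ratios of G0 MB over MB and G0 MB over MT together set the ratio expected of MT over MB. In title order those 2 ratios have the same sign for both genes, so a value near 0 is no independent result. By the labelled dyes they have opposite signs and lead to a value far from 0, unlike those measured. All ratios of Phgdh and Psat1 lay within 1 of 0 on the log2 scale here, whichever way the arrays are read. By the labelled dyes, H3047A08 had log2 ratios of -0.62 and 0.39 on replicates 1 and 2, H3022F05 of -0.94 and -0.14, H3044G06 of -0.09 and -0.54, and Psat1 of -0.94 and -0.09. In title order replicate 1 turns to 0.62, 0.94, 0.09 and 0.94 while replicate 2 stays. The largest change of a member on any array of this comparison was 1.92-fold, and all 16 spots passed the limits in both channels.

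The mean of H3047A08 was -0.12 by the labelled dyes (95% interval -1.12 to 0.88) and 0.50 in title order (-0.39 to 1.40). For Psat1 it was -0.52 (-2.06 to 1.03) and 0.43 (-1.08 to 1.93). No member passed the test, with limma adjusted p-values of 0.9998 for all 4 clones by the labelled dyes and from 0.860 to 0.999 in title order. By the labelled dyes 0% of 5373 clones were called in either direction (34 higher and 36 lower at an unadjusted limma p under 0.05). In title order 0.298% were called higher and 0.316% lower (270 higher and 374 lower at an unadjusted limma p under 0.05). Read by the labelled dyes, the arrays of this comparison ran against each other (r = -0.486), so that 0% does not measure how little changed. The interval was -1.65 to 0.58 for H3022F05 by the labelled dyes and -0.71 to 1.52 in title order. For both genes the intervals leave room for changes beyond the 1.6-fold used as the limit.

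Psph in MT over MB stood at -1.10 and 1.64 by the labelled dyes and 1.10 and 1.64 in title order. Its mean in title order was 1.37 (standard error 0.41, n = 2, limma adjusted p = 0.210). By the labelled dyes the pathway lists, markers left out, ended in Gcsh at 1.01 and Asns at 0.65 at the top and in the threonyl- and leucyl-tRNA synthetases Tars at -0.90 and Lars at -0.55 at the bottom. In title order they ended in Nupr1, a stress-induced nuclear protein, at 2.64 and Slc3a2, the heavy chain of amino acid exchangers, at 1.45, and in Paics, a purine enzyme, at -1.46 and Gcsh at -1.04. None of these was called. By the labelled dyes Gcsh (2.05 and -0.03), Asns (-0.57 and 1.86) and Lars (-1.70 and 0.60) each disagreed in sign between replicates 1 and 2. Of the markers, Tpm2 was called in title order, at 2.71 (limma adjusted p = 0.0279). The 10 tested genes of the ATF4 list had 6 above 0 by the labelled dyes and all 10 in title order, with medians of 0.09 and 0.79 beside 0.11 and -0.01 over all genes.

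The 3 comparisons among MB, G0 MB and MT close a loop, since the ratio of G0 MB over MB less that of MT over MB gives G0 MB over MT by another route. For H3047A08 this route gave -3.91 by the labelled dyes against 3.08 measured directly, and -4.53 in title order against -3.08 measured directly. For Psat1 it gave -1.87 against 2.81 by the labelled dyes and -2.82 against -2.81 in title order. For Psph it gave -1.70 against 1.30 and -2.80 against -1.30. The routes thus had opposite signs by the labelled dyes and the same sign in title order at all 3 genes. The comparisons share RNA states and no arrays.

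G0 MB over G0 FB sets quiescent myoblasts against quiescent fibroblasts, and it too took no part in choosing the genes. By the labelled dyes, H3047A08 had log2 ratios of -0.77 and -0.86, H3022F05 of -0.70 and -1.40, and H3044G06 of -0.22 and -1.07, so all 6 Phgdh ratios were below 0. In title order all 6 are above 0. On replicate 1 the channel labelled G0 MB read 4678 and 3417 for H3047A08 and the channel labelled G0 FB 7588 and 6140. On replicate 2 these channels read 9166 and 11619 against 15066 and 23401. All 8 readings passed their limits. Between both arrays of this comparison r was 0.214 over 6465 clones.

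The means were -0.82 (95% interval -1.82 to 0.18) for H3047A08, -1.05 (-2.17 to 0.06) for H3022F05 and -0.64 (-1.62 to 0.33) for H3044G06 by the labelled dyes, with the signs turned in title order. No clone passed the test (limma adjusted p = 0.9997 by the labelled dyes and from 0.966 to 0.997 in title order), where 0.0805% of 6211 clones were called lower and 0% higher by the labelled dyes. In title order 0.0805% were called higher and 0% lower. The Psat1 clone passed the limit at none of its spots in this comparison. Its 3 spots with a value read 950, 2761 and 2776 in the channel labelled G0 MB, with limits of 1489 and 3021, and 1908, 5214 and 4712 in the channel labelled G0 FB, with limits of 1921 and 5422. Psph passed the limit at none of its spots either. Among genes of the pathway lists, markers left out, Eif2s1, a subunit of the initiation factor whose phosphorylation raises ATF4, at 1.37 and Eif2ak4, one of its kinases, at 1.10 were highest by the labelled dyes, and Nupr1 at -3.21 and Glul at -2.23 lowest, with the signs turned in title order and none called.

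Genes with a pattern like the members' were sought by the uncentred correlation of log2 ratios over the arrays on which the member was measured. This measure does not change when an array is turned, and it is given as a description without a test. Over 9 arrays and 1896 genes, the second Phgdh clone H3022F05 had 0.986 with H3047A08. The 8 other genes nearest to H3047A08 were Odc1 at 0.963, Rpl14 at 0.960, Psmd4 at 0.960, Psmb4 at 0.948, Tecpr2 at 0.944, Cnn3 at 0.939, Agt at 0.939 and Banf1 at 0.937, against a median of 0.0556 over all genes. Odc1 is the first enzyme of polyamine synthesis, Rpl14 a ribosomal protein, and Psmd4 and Psmb4 proteasome subunits. The pattern is shared in sign more than in size, since the mean of Odc1 in G0 MB over MB was -2.02 and that of Rpl14 was -1.09.

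For Psat1, measured on 6 arrays, H3047A08 had 0.906 and H3022F05 0.852 among 2294 genes compared. The 8 other genes nearest to it were Hspb1 at 0.983, Rpl36 at 0.977, Nes at 0.970, Odc1 at 0.956, Iars at 0.953, Cox6b1 at 0.952, Micos10 at 0.948 and Mcm3 at 0.939, against a median of 0.0331. Hspb1 is a small heat shock protein, Nes the intermediate filament nestin, and Iars the isoleucyl-tRNA synthetase of the ATF4 list. Odc1 was the gene named for both members. Psph had 0.756 and stood 142 in that order.

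**Figure D4:**
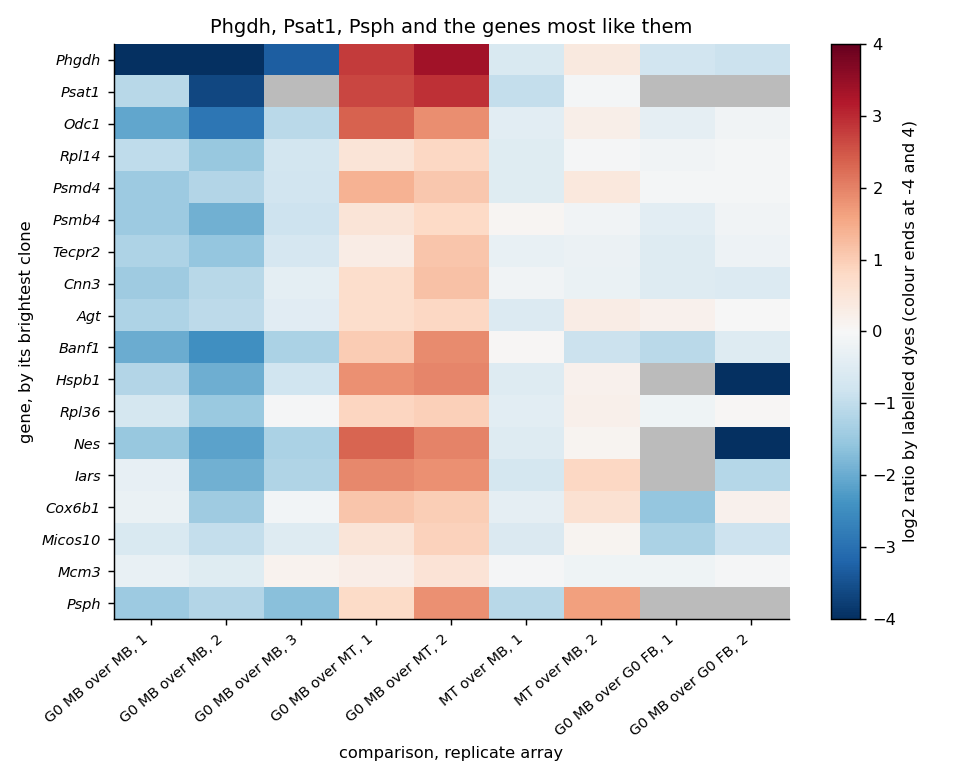
Log2 ratio by the labelled dyes (colour, ending at -4 and 4) of Phgdh and Psat1 by their brightest clones, of the 8 genes nearest to each in uncentred correlation and of Psph (rows), on the 9 arrays (columns, comparison and replicate). Grey marks an array without a measured spot. Rows are negative on most arrays of G0 MB over MB, positive on both arrays of G0 MB over MT and near 0 on most others, and Phgdh spans the widest range, from -4.47 to 3.35.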

How the data were processed

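Per the file headers and the study's methods, the authors measured Cy3 and Cy5 intensities with ArrayVision, subtracted background, set detection limits and normalized by LOWESS before deposit, so neither step was repeated, although the design had foreseen it. The deposited log2 values and the value table are the log2 ratio of these intensities, with 0 for spots without a value, and in the value table the columns of MT over MB are exchanged between its replicates. Versions are not given in the sources used here. Another deposited column is a flag (an other kind of score), 1 above the limit in at least 1 channel; spots at 0 and control spots were left out.

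The spots of a clone were averaged, and all 9 arrays were fitted together with limma 3.58.1 under R 4.3.3 (lmFit, eBayes over clones with at least 2 residual degrees of freedom). Testing a comparison needed values on 2 or more of its arrays; the Benjamini-Hochberg adjustment ran within it, and clones were called at an adjusted p under 0.04 and past 1.6-fold (log2 0.67), the limits the methods give for SAM. The brightest clone stands for a gene with several. The limma step was tested on simulated data. Tables were made with Python 3.11.15.

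Members and lists were chosen with earlier results of these data known. Of the lists, named are Psph, Shmt1, Shmt2, any gene called, the 2 highest and 2 lowest in each comparison, and the 8 genes nearest to each member in uncentred correlation; Atf4, Gldc and the markers were named beyond this rule. The number of arrays limits the precision.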

Additional observations from a re-analysis of the deposited data

How the results depend on the processing

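The sign of G0 MB over MB was kept for Phgdh and Psat1 under every alternative run. Its size for the brightest Phgdh clone, -4.02, moved beyond the spread of its replicates when arrays were scaled to a common spread (-3.04), and it was from -4.39 to -3.80 with 1 array left out. In G0 MB over MT, values of 3.08 for Phgdh and 2.81 for Psat1 turned to -3.08 and -2.81 in title order and with the value table of the authors. The mean over the Phgdh clones was 2.66, where H3044G06 had 1.88 on its only array. In MT over MB, -0.12 for Phgdh and -0.52 for Psat1 turned to 0.50 and 0.43 in title order and in the value table, and Phgdh ranged from -0.62 to 0.39 with 1 array left out. In G0 MB over G0 FB, -0.82 for Phgdh turned to 0.82 in title order and in the value table. No value of the 2 comparisons that were tested passed the threshold under any alternative. Same-numbered arrays of different comparisons had deviations correlated from -0.43 to 0.05, so the numbers do not pair them; with a replicate block Psat1 in G0 MB over MT was 3.04, beyond the spread of its 2 arrays, and no tested call changed. Psat1 has no value in G0 MB over G0 FB unless spots under the limit are used. Counts of clones called in G0 MB over MB, 19 higher and 8 lower, ranged from 0 to 329 and from 0 to 238 over the alternatives. They were 104 and 100 in title order, 329 and 238 without replicate 3, and 0 without replicate 1 or 2 and with scaled arrays. In the other comparisons, with at most 5 called in a direction by the labelled dyes, they ranged from 0 to 44. Signal over background limits the sizes in G0 MB over MB, where 9 of 23 G0 MB readings of the members passed the limit.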
